A study of Mus musculus with 18 samples.

Results

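The transcripts described here are the unannotated incomplete splice matches of the annotation that was built from full-length cDNA of mouse LK cells. A transcript was a member if its row in the deposited annotation carried the status of a transcript absent from the reference and the mark of an incomplete splice match. The annotation held 153565 transcripts, of which 11013 had that status, and 8444 of these were members. A further 2180 unannotated transcripts joined known splice sites in a new way, 329 used an unannotated splice site and 60 lay between genes. The members lay in 3924 genes, which are called host genes here.

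An incomplete splice match is a transcript model whose introns follow an annotated transcript but do not run through all of it. Many members did not have this structure, as given below. The order of the introns of a transcript is its junction chain. A chain that begins at the annotated first intron and stops early is truncated at the 3′ end (a prefix), and a chain that begins late and runs to the last intron is truncated at the 5′ end (a suffix). Such models can be true isoforms with another start or another cleavage and polyadenylation site. They can also be made when a reverse transcriptase stops before the 5′ cap, or when an oligo-dT primer anneals to an internal run of A in place of the poly(A) tail. A cleaved and polyadenylated 3′ end usually follows a poly(A) signal, most often AATAAA or ATTAAA, by a short distance. The program TALON compares long reads with an annotation, gives every gene and transcript a number, and names these classes.

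LK cells are bone marrow cells that lack the surface markers of mature blood lineages and carry Kit, the receptor for stem cell factor. They hold the stem cells and the early progenitors of blood. The mice were female C57BL/6 by the labels (C57BL/6J by the study's methods), and no transgene or treatment is given for any of them. The young group was mice 1, 3 and 5, aged 8 weeks, and the aged group was mice 2, 4 and 6, aged 72 weeks. Cells of each mouse gave 1 full-length cDNA pool from the 10x Genomics 3′ protocol, which was read on Illumina instruments and in 2 PacBio runs, on a Sequel and a Sequel II. Each mouse is 1 replicate, and cells of all types in the LK gate were pooled in the long-read counts.

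The deposited long-read counts are per gene, so no member has a count of its own in any mouse. The annotation was filtered by the authors to transcripts with at least 5 reads in at least 3 samples, and the reads behind a single member are not given. Sequel runs held 274522 to 358453 reads on genes and Sequel II runs held 962174 to 1833762. In each run 47.4% to 52.4% of the reads were not assigned to a gene, for any reason. The Sequel II runs of mice 3, 4, 5 and 6 were closest to the Sequel runs of mice 6, 5, 4 and 3, each of the other age. For these r was 0.926 to 0.935 over 8300 genes, against 0.890 to 0.913 with the run of the same mouse. The labels were kept, and the age comparisons below are also given for the Sequel runs alone. Whether runs were exchanged, so that the summed reads of a mouse mix ages, was not tested. Which instrument's labels hold was not tested either. Kit, on which the cells were sorted, was read at 635 to 809 CPM (reads of a gene scaled to the same total of reads on genes in every mouse). The summed level of 25 markers of mature B, plasma, T, NK and dendritic cells and macrophages was 8873 CPM in aged mouse 2 and 747 to 2070 CPM in the other mice.

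Short stretches of sequence show how the ends of the members differ. Each is the last 30 bases of a member, 5′ to 3′, from GRCm38, taken from the most highly read of the host genes named below that had members of both forms. The sequences come from the transcripts of Gencode M21 on that build. Capitals mark AATAAA or ATTAAA, and a sequence without capitals holds neither. The first set is from members truncated at the 3′ end.
Mpo TALONT000524799, chr11:87801065-87801094, plus strand: ggggccagcagccatgaagaagtacctacc
Rpl4 TALONT000312457, chr9:64177448-64177477, plus strand: gaaggctgcttccctcaagagtaactataa
Rps3 TALONT001027321, chr7:99478315-99478344, minus strand: tcctggaacccactctgtatgtagaccagg
Hsp90ab1 TALONT000788287, chr17:45567781-45567810, minus strand: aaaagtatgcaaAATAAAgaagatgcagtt

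The second set is from members of the same genes that are truncated at the 5′ end and therefore keep the last intron.
Mpo TALONT000532012, chr11:87804383-87804412, plus strand: ttcacactAATAAAacatggtggatgggga
Rpl4 TALONT000320979, chr9:64178487-64178516, plus strand: catatttcAATAAAtcaaacatgtggtgac
Rps3 TALONT001027245, chr7:99477896-99477925, minus strand: aagtgtgcaaccttcatctggttgATTAAA
Hsp90ab1 TALONT000788407, chr17:45567790-45567819, minus strand: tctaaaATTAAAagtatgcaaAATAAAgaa

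All 4 of the second set held a signal in these 30 bases. Of the first set, only the Hsp90ab1 member did, and its last exon ran 448 nt past the end of the matching exon of its reference transcript, to within 6 nt of an annotated 3′ end. The Mpo member stopped 191 nt before the end of an internal exon and the Rpl4 member stopped exactly where an internal exon ends.

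Of the 8444 members, 3034 (35.9%) lost junctions at the 3′ end only, 748 (8.86%) at the 5′ end only and 125 (1.48%) at both ends. Loss at the 3′ end was therefore the most frequent form of truncation. The reference for each member was the transcript of the same gene, known or merged from the reference, that contained its chain with the fewest missing junctions. A further 3026 members (35.8%) lost no junction, because their chain was the whole chain of a reference transcript. The chain of 1114 members (13.2%) was in no reference transcript of any gene on its strand, 316 members (3.74%) had a single exon, and 81 (0.959%) had a chain that a reference transcript of another gene contained. In 239 of the 1114 (21.5%) every single junction was in a reference transcript.

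**Figure D1:**
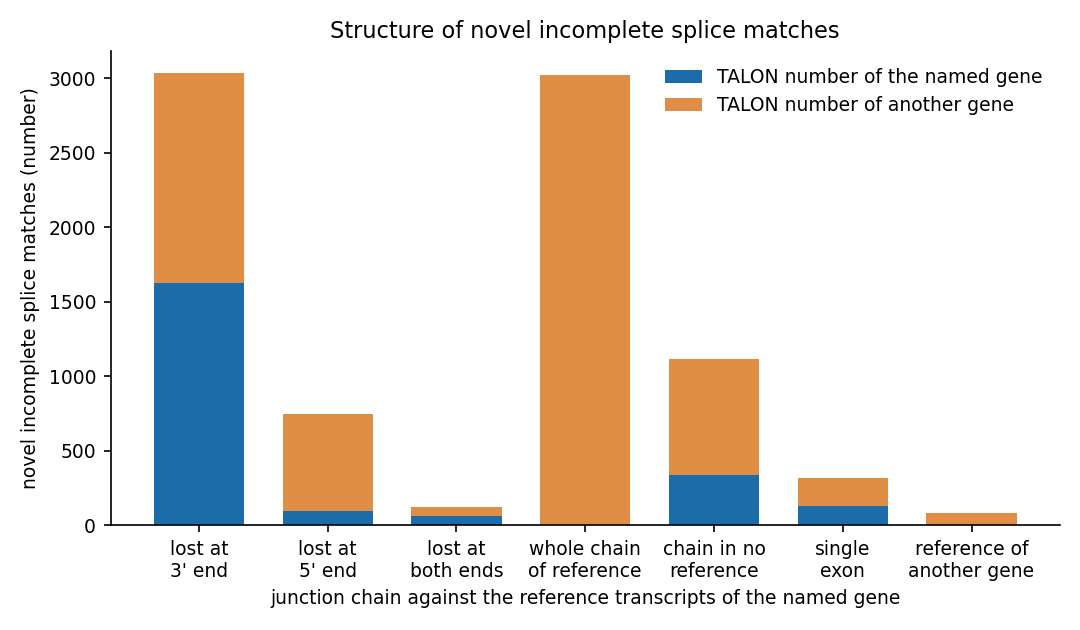
Number of unannotated incomplete splice matches (y axis) by the structure of the junction chain against the reference transcripts of the named gene (x axis), split by whether the TALON gene number of the member belongs to that gene. The tallest bars are the 3034 members that lost junctions at the 3′ end and the 3026 that had the whole chain of a reference, and none of the latter carried the number of the named gene.

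Each member row names a gene and also carries the TALON number of a gene. In 2254 members (26.7%) the number was that of the named gene. These are called own-number members below. In the other 6190 (73.3%) it was the number of another gene on the same chromosome, which lay on the opposite strand in 6080 of them (98.2%). That gene overlapped the member in 888 of 6114 cases (14.5%), and its median distance from the member was 39533 nt. All 70 members of Mpo, for example, were named for Mpo, but 44 carried the number of Rad51c.

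The structure of the members differed with this number. Of the own-number members, 1630 (72.3%) were truncated at the 3′ end, 93 (4.13%) at the 5′ end and none had the whole chain of a reference. Members with the number of another gene were truncated at the 3′ end in 1404 cases (22.7%) and at the 5′ end in 655 cases (10.6%), and 3026 of them (48.9%) had the whole chain of a reference transcript. For 2842 of these 3026 the reference was itself detected and listed as KNOWN. In 1043 of them (34.5%) both ends lay within 50 nt of the ends of that reference, and in 338 (11.2%) both ends were identical to it.

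The prefix and suffix marks that TALON wrote also depended on the number. Among own-number members, all 1630 that were truncated at the 3′ end carried the prefix mark and all 93 that were truncated at the 5′ end carried the suffix mark. With the number of another gene, 1138 of 1404 members truncated at the 3′ end (81.1%) carried the suffix mark alone, and 519 of 655 truncated at the 5′ end (79.2%) carried the prefix mark alone. Members with a whole chain were marked by strand: 1124 of 1324 on the plus strand (84.9%) had the prefix mark alone, and 1621 of 1702 on the minus strand (95.2%) had the suffix mark alone. The marks of all members together, 3709 prefix alone and 3634 suffix alone, were therefore nearly even, whereas their junction chains were not. A known transcript was named as the matched transcript in 1401 own-number members (62.2%), and in 47 of the others (0.759%). In 6134 of the 6190 others (99.1%), all matched transcripts had TALON numbers above those of the known transcripts.

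Many chains were listed under both numbers. The 8128 members with at least 2 exons held 7086 distinct chains within their genes, and no chain had more than 2 members. Own-number members held 2125 of these chains, and 1025 of them (48.2%) were found again in a member with the number of another gene. The shared chains were 17.1% of the 5986 chains of the latter and lay in 647 host genes. For these 1025 chains the 5′ ends of both members were a median of 13 nt apart and the 3′ ends a median of 0 nt. The 5′ ends lay within 50 nt of each other in 789 chains (77.0%) and the 3′ ends in 669 (65.3%). In Kit, 7 of 8 chains were listed in this way, in Mpo 21 of 49, and in Eef1a1 12 of 19. In such genes the count of members is larger than the count of distinct chains.

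Members truncated at the 3′ end kept a median of 52.8% of the summed exon length of their reference (interquartile range 36.5% to 76.8%). They lost a median of 4 junctions, which was 40.0% of those of the reference. Of these members 567 (18.7%) lost 1 junction, 1033 lost 2 to 4 and 1434 (47.3%) lost 5 or more. Their median length was 1695 nt with 8 exons, and that of their references was 3152 nt with 13 exons. Own-number members of this form kept 50.1% and the others 57.1%.

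Truncation at the 5′ end was milder. These members kept a median of 80.3% of the reference length and lost a median of 2 junctions, and 348 of 748 (46.5%) lost a single junction. Their median length was 1918.5 nt with 7 exons, against references of 2562 nt with 11 exons. A lost junction did not always mean a lost end. In 127 of 748 members (17.0%) the first exon covered every intron that was counted as lost, and in 178 of the 3034 truncated at the 3′ end (5.87%) the last exon did. The Rpl4 member shown above is of this kind, with a first exon that ran 1449 nt past the reference exon and a total length of 2778 nt against 1538 nt for its reference.

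The most severe losses at the 3′ end were 3 own-number members of Ubr4, which encodes a very large ubiquitin ligase. They began at the annotated start at position 139380659 of chromosome 4 and lost 89, 88 and 87 of the junctions of a reference with 106 exons, and they ended exactly at the end of an annotated exon. Among the most severe losses at the 5′ end were a pair of members of Prpf8, a core protein of the spliceosome, which lost 34 and 30 junctions of a reference with 42 exons (the larger loss at chr11:75504668-75509447, plus strand). The last 50 bases of both Prpf8 members held a poly(A) signal, and those of the Ubr4 members did not.

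Members were similar in length to detected known transcripts but had more exons. Their median length was 1989.5 nt (interquartile range 1410 to 2741 nt), and that of the 23570 known transcripts was 1895 nt (817 to 3121 nt). They had a median of 8 exons against 4, and 3.74% of members against 24.4% of known transcripts had a single exon. Unannotated transcripts that rejoined known splice sites were longer, at a median of 2206.5 nt and 10 exons. The longest member had 5904 nt in 3 exons in Ncaph2, a condensin subunit gene, and the shortest had 130 nt in a single exon in Capzb, which encodes a subunit of an actin capping protein. Of all members, 8250 (97.7%) lay in protein-coding genes and 81 (0.959%) in genes of long noncoding RNAs.

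The coding region followed the truncation, as the definition of the classes makes likely. A reference with a coding region was available for 2617 members truncated at the 3′ end, and 2425 of them (92.7%) lacked the stop codon while keeping the start codon. Only 145 (5.54%) kept both. Of 690 members truncated at the 5′ end, 452 (65.5%) lacked the start codon while keeping the stop codon and 215 (31.2%) kept both. The whole region was kept in 2662 of 2764 members with a whole chain (96.3%).

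The 5′ ends of most members lay at annotated starts. Of the 3034 members truncated at the 3′ end, 2806 (92.5%) began within 50 nt of the start of a reference transcript of the gene. In own-number members the share was 98.2%, with 1565 of 1630 (96.0%) exactly at an annotated start, and in the others it was 85.8% and 53.4%. Members truncated at the 5′ end began near an annotated start in 206 of 748 cases (27.5%), and those with a whole chain in 2617 of 3026 (86.5%). Own-number members within 50 nt of an annotated start began exactly there in 1835 of 1877 cases. Those within 50 nt of an annotated 3′ end stopped exactly there in 418 of 436 cases. All ends given here, and the windows read at them below, are positions of the models. How TALON set these positions from the reads was not tested.

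At the 3′ end the order was the reverse, which in part follows from the classes, since they were defined by the end that lost junctions. Only 549 of 3034 members truncated there (18.1%) ended within 50 nt of an annotated 3′ end, whereas 566 of 748 truncated at the 5′ end (75.7%) and 2105 of 3026 with a whole chain (69.6%) did. Of the members truncated at the 3′ end, 1275 (42.0%) ended exactly where the matching exon of the reference ended, 737 (24.3%) stopped within that exon, and 1022 (33.7%) ran past it. By position, 2277 ended in an exon of the reference, 694 (22.9%) in an intron and 63 (2.08%) outside it.

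A poly(A) signal was searched as AATAAA or ATTAAA on the transcript strand in the last 50 bases of each member whose end was covered by Gencode M21 exons. Of all 50-base windows of the members' reference transcripts, 3.355% held either. The signal was found in 118 of 2352 members truncated at the 3′ end (5.02%), in 447 of 644 truncated at the 5′ end (69.4%) and in 1523 of 2368 with a whole chain (64.3%). Among members truncated at the 3′ end it was rare where the end fell on or within the matching exon (21 of 1275 and 10 of 737). It was more frequent where the last exon ran past it (87 of 340, 25.6%). Only 340 of the 1022 members of the latter kind could be read, whereas all of the former could. The 25.6% and the 5.02% therefore leave out ends that annotated exons do not cover. Own-number members truncated at the 3′ end had the signal in 36 of 1299 cases (2.77%, exact 95% binomial interval 1.95% to 3.82%). The share in the others was 7.79%, and that of all windows was 3.355%. The interval covers counting error only, because members of the same gene are not independent and can share an end. Whether the share in own-number members differs from that of all windows was not tested.

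The share of A after the 3′ end bears on priming inside a transcript, and the authors labelled reads on a window of 20 bases for this purpose. At least 10 A in the 20 bases after the end were found in 63 of 1100 members truncated at the 3′ end that could be read (5.73%), in 21 of 347 truncated at the 5′ end (6.05%) and in 95 of 1246 with a whole chain (7.62%). Of all 20-base windows of the reference transcripts, 4.11% did. These windows could be read only where annotated exons continue past the end, so members that end at an exon boundary are mostly not among them, and introns were not searched. Of the members that stopped within the matching exon, 54 of 647 had an A-rich window. It was 16 of 400 in own-number members (4.00%) and 38 of 247 in the others (15.4%).

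**Figure D2:**
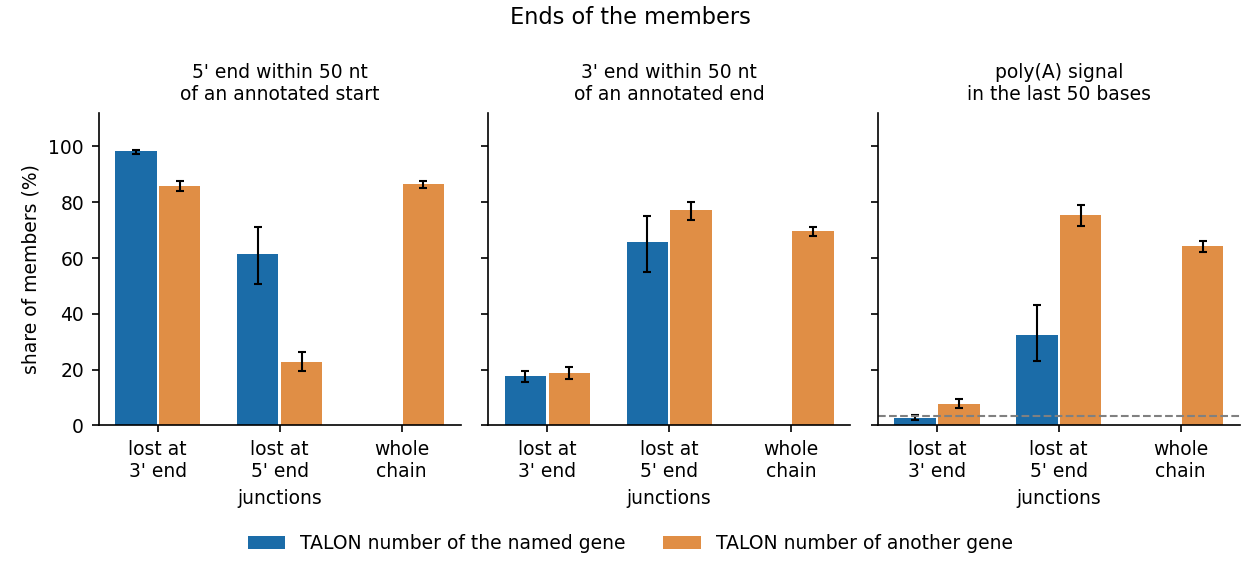
Share of members (y axis, %) whose 5′ end lay within 50 nt of an annotated start, whose 3′ end lay within 50 nt of an annotated end, or whose last 50 bases held AATAAA or ATTAAA, by the end at which junctions were lost (x axis) and by TALON number, with exact 95% binomial intervals, which cover counting error only, and a dashed line at the share of all windows with the signal (3.355%). Members truncated at the 3′ end sit high on the left and low in the middle and on the right.

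The share of genes that were hosts followed the number of reads. Of 17221 genes with at least 1 long read, 3887 (22.6%) were hosts, and 2289 of all 3924 hosts had a single member. A further 1290 had 2 to 4 members, 276 had 5 to 9, and 69 had 10 or more and together held 1112 members. The share went from 1.07% of 5251 genes with fewer than 10 reads to 4.33% with 10 to below 100, 35.2% with 100 to below 1000, 68.2% with 1000 to below 10000 and 83.9% of 93 genes with 10000 or more. The mean number of members per gene over these classes was 0.0152, 0.0562, 0.509, 2.06 and 6.94. Over all genes with a read, Spearman's coefficient between members and long reads was 0.57 (n = 17221 genes, which share the same libraries). The minimum of 5 reads in 3 samples itself ties the count of members to reads. Even so 37 hosts had no counted long read and 101 had fewer than 15.

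**Figure D3:**
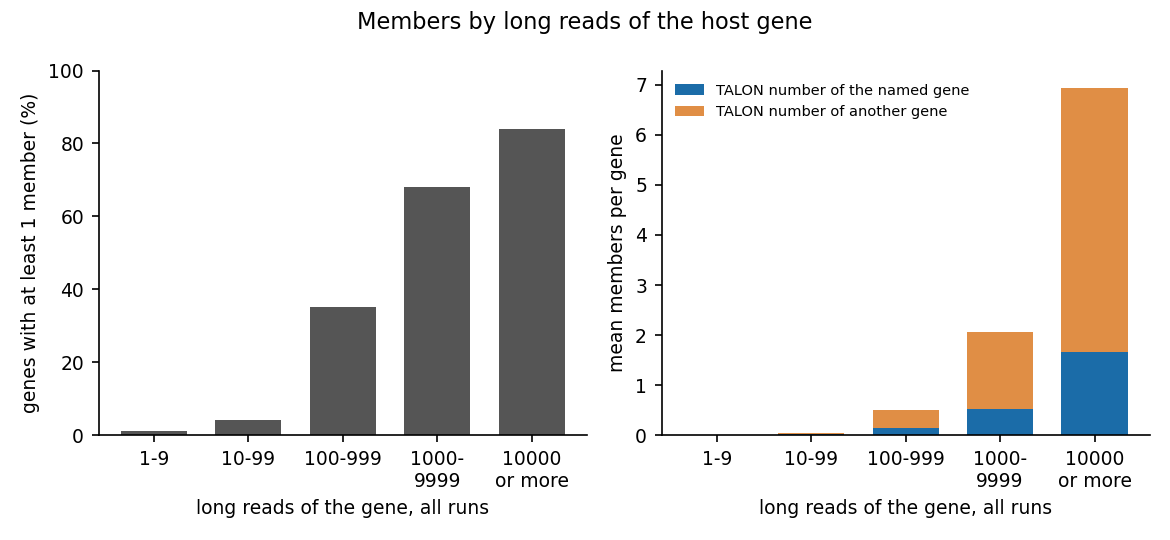
Share of genes with at least 1 member (left, %) and mean number of members per gene (right, split by TALON number), by the long reads of the gene summed over all runs (x axis, classes of 10-fold width). Both are higher in each class than in the class before, from 1.07% and 0.0152 members to 83.9% and 6.94 members.

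Over all genes with a read and all members, the length of the gene was less related to the number of members than its reads were. Spearman's coefficient between members and the length of the longest reference transcript was 0.09 over 17142 genes, and with the genomic span of the gene it was 0.14. With the largest number of exons it was 0.27. For own-number members alone, the coefficient with transcript length was 0.17 over these genes and 0.34 among host genes. With long reads, that of own-number members was 0.34 over genes with a read and 0.15 among host genes. Among host genes, own-number members were thus more related to length than to reads. Within classes of reads, the coefficient with length was 0.02 from 100 to below 1000 reads, 0.35 from 1000 to below 10000 and 0.33 at 10000 or more. For own-number members alone it was 0.21, 0.37 and 0.34 in these classes. Over all members the coefficient with exon number was 0.14, 0.48 and 0.65. In the class from 1000 to below 10000 reads, hosts had a longest transcript of 2950 nt at the median and the other genes 2022 nt. Among genes with at least 100 reads, split in 3 by transcript length, the mean number of members was 0.824, 1.23 and 0.867, while that of own-number members was 0.119, 0.295 and 0.355 at medians of 695, 482 and 343 reads.

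Mpo, which encodes the peroxidase of neutrophil granules, was the gene with the most members. Its 70 members held 49 distinct chains and ranged from 758 to 3463 nt (gene at chr11:87793581-87804413, plus strand). Of them 21 were truncated at the 3′ end, 11 at the 5′ end and 28 at both ends, 2 had a whole chain and 8 had a chain in no reference transcript. This gene alone held 28 of the 125 members that were truncated at both ends. A 3′ end was shared within 10 nt by 19 of them around position 87801094, which is the end of the Mpo sequence of the first set above. These 19 members had 10 different chains of 4 to 10 exons. They ended 1157 to 1162 nt from the nearest annotated 3′ end, with 6 or 7 A in the next 20 bases and no poly(A) signal, and 9 were own-number members. Of the 26 Mpo members that ended within 50 nt of an annotated end, 17 held a signal.

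**Figure D4:**
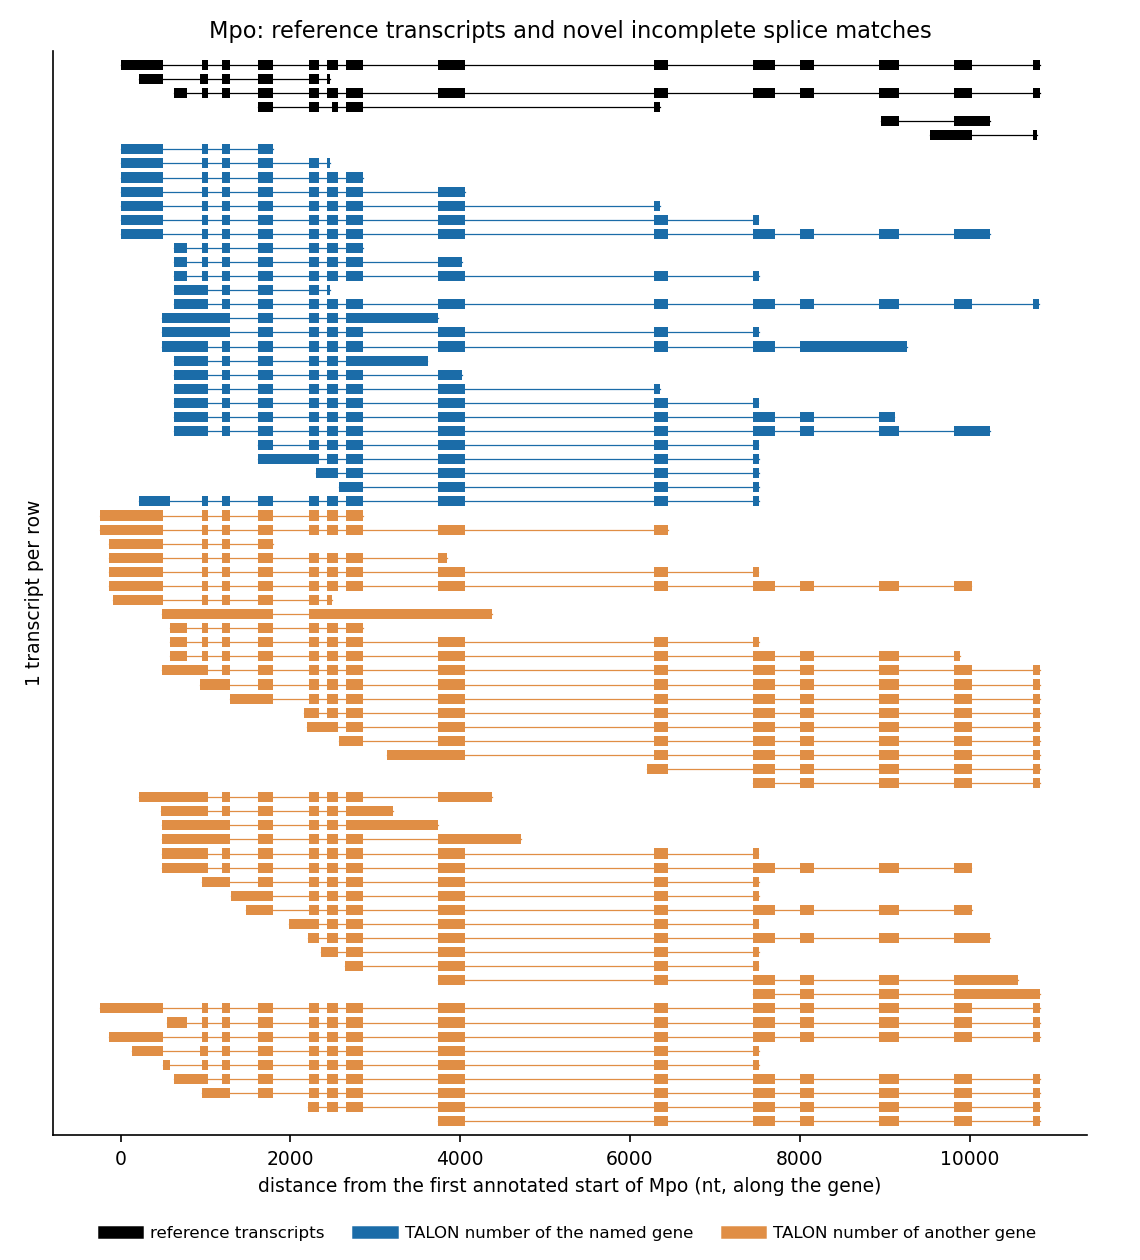
Reference transcripts of Mpo (black) and its 70 unannotated incomplete splice matches, 26 with the TALON number of Mpo (blue) and 44 with that of another gene (orange), drawn to scale by distance from the first annotated start (x axis, nt), with exons as boxes and 1 transcript per row. Models of both colours stop at many different exons, and 19 of them, 9 blue and 10 orange, stop at the same place within 1 internal exon.

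Of the genes with the next most members, Gm20388 stood apart. It is annotated over 4434882 nt of chromosome 8 (119910841 to 124345722, plus strand) and overlaps 74 other protein-coding genes, 39 of them on its strand. None of its 68 members was contained in a reference transcript of its own. The chain of 20 was contained in a reference transcript of another gene, that of 44 was in no reference and 4 had a single exon. The elongation factor genes Eef2 and Eef1a1 had 34 and 31 members, the chaperone Hsp90ab1 had 31, and Pabpc1, which encodes the main cytoplasmic poly(A)-binding protein, had 29. Their forms differed: 19 of the 31 members of Eef1a1 were in no reference chain and none was truncated at the 3′ end alone, whereas 14 of 34 in Eef2, 11 of 31 in Hsp90ab1 and 11 of 29 in Pabpc1 were. Pcbp2 and Hnrnpl, RNA-binding proteins, had 28 and 24 members, Adgrg1, an adhesion receptor of stem cells, had 27, and Trim28, a co-repressor of transposable elements, had 22. Eef1a1 was given 7599 long reads against 383569 short-read UMIs (unique molecular identifiers, counts of captured molecules) and Mpo 122613 against 209087. Eef1a1 is among the genes with near-identical copies in the genome, whose counts are uncertain, and whether copies bear on this gap was not tested.

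Transcription factors of blood stem and progenitor cells were hosts in 22 of 39 genes with a read (56.4%, against 22.6% of all genes). Since these genes were read more than most (median 874 reads against 86), the share among genes with at least 100 reads is the closer comparison, at 21 of 33 (63.6%) against 44.1% of all. Their 95 members were truncated at the 3′ end in 51 cases and had a whole chain in 24. Myb, a factor that progenitors need to keep dividing, had 20 members, 14 of them truncated at the 3′ end. Ldb1, an adaptor that links enhancer-bound factors, had 11, Gata2, a factor of stem cells and mast cells, had 10, and Smarcc1, a subunit of a chromatin remodeller, had 9.

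Cytokine and growth factor receptors were hosts in 12 of 30 genes (40.0%; 12 of 27 with at least 100 reads, 44.4%, against 44.1% of all). Among all genes with 100 to below 1000 reads 35.2% were hosts, and the receptors had a median of 473.5 reads. Of their 36 members, 20 were truncated at the 3′ end. Kit held 17 of these members, with 8 distinct chains among those that were spliced, and 14 were truncated at the 3′ end and none at the 5′ end alone. The shortest of these, at 713 and 719 nt, kept 3 of 21 exons. Ifnar1 and Ifnar2, the chains of the type I interferon receptor, had 4 and 2 members, and Epor, the erythropoietin receptor, had 3.

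Splicing factors were among the lists with the largest share of hosts, at 31 of 42 genes (73.8%; 30 of 40 with at least 100 reads, 75%). Among all genes with 1000 to below 10000 reads 68.2% were hosts, and the splicing factors had a median of 2279 reads. Of their 201 members, 76 were truncated at the 3′ end, 38 at the 5′ end, 44 had a whole chain and 37 were in no reference. Hnrnpa2b1, which binds and packages new transcripts, had 15 members, and Hnrnpm and Sf3b2, a subunit of the complex that binds the branch point, had 14 each. In Hnrnpm the chains of 10 of 14 members were in no reference transcript, and in Sf3b2 10 of 14 members were truncated at the 3′ end.

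Granule proteins of myeloid, mast and eosinophil cells were hosts in 10 of 23 genes (43.5%; 10 of 16 with at least 100 reads, 62.5%). Their median was 1356 reads, and 68.2% of all genes with 1000 to below 10000 reads were hosts. They had 98 members, of which 70 were those of Mpo. The serine proteases Prtn3, Ctsg and Elane, although read 16233 to 18338 times, had 7, 6 and 4 members. They have 5 exons at most, against 14 in Mpo, which was also read 122613 times. Whether exons or reads bear on the number of members here was not tested. Chaperones and genes of the unfolded protein response had hosts in 18 of 24 genes (75%) and 147 members, of which 68 were truncated at the 3′ end and 43 at the 5′ end. They had a median of 5202 reads, and 68.2% of all genes with 1000 to below 10000 reads were hosts. Hsp90aa1 and Hsp90b1, relatives of Hsp90ab1, had 18 and 15, and Hspa5, the main chaperone of the endoplasmic reticulum, had 12.

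Cytosolic ribosomal proteins had a share of hosts below that of all genes with at least 100 reads, and this difference was not tested. They were hosts in 28 of 78 genes (35.9%) and in 28 of 76 with at least 100 reads (36.8%, against 44.1% of all). Their median was 1327 reads, and 68.2% of all genes with 1000 to below 10000 reads were hosts. Rpl4 had 13 members, Rplp0 had 12, Rpl3 had 8 and Rps3 had 6. Cell division genes were hosts in 25 of 36 (69.4%; 25 of 35 with at least 100 reads, 71.4%). They had a median of 1099.5 reads, in the class of reads in which 68.2% of all genes were hosts. In 2 of the subunits of the replicative helicase truncation at the 5′ end was the more frequent form, with 10 of 16 members in Mcm6 and 7 of 12 in Mcm7, whereas Mcm3 had 5 of 10 at the 3′ end and Mcm2 had 7 of 11 in no reference.

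Glycolysis genes were hosts in 10 of 17 (58.8%; 9 of 14 with at least 100 reads, 64.3%, against 44.1% of all). Their median was 702 reads, and 35.2% of all genes with 100 to below 1000 reads were hosts. Only 12 of their 53 members were truncated at the 3′ end. All 14 members of Pkm, the pyruvate kinase gene, were in no reference chain. Gpi1 had 13 members, 8 of them truncated at the 3′ end, Hk1 had 7, and Ldha had 5, of which 4 were truncated at the 5′ end. Genes of haem synthesis and globins were hosts in 6 of 15 (40.0%; 6 of 12 with at least 100 reads, 50%, against 44.1% of all). At a median of 611 reads, they had 12 members, 7 of them with a whole chain. The hosts included Alas1, Alad and Tfrc, the transferrin receptor, with 2 members each. Markers of mature cells were hosts in 5 of 21 genes (23.8%, against 22.6% of all), at a median of 45 reads. Among those with at least 100 reads 5 of 10 were hosts (50%, against 44.1% of all). None of their 17 members was truncated at the 3′ end alone or carried the number of the named gene. Ighm, the heavy chain of antibody class M, held 12 of these, Cd74 held 2, and Jchain and H2-Aa held 1 each.

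The design also sets young against aged mice. Reads on host genes made up 66.7%, 66.1% and 68.1% of the reads on genes in young mice 1, 3 and 5, and 68.0%, 67.0% and 66.4% in aged mice 2, 4 and 6. The ages overlapped throughout. Young mice averaged 67.0% ± 1.01 (SD, n = 3), aged mice averaged 67.1% ± 0.806 (SD, n = 3), and aged exceeded young by 0.190 percentage points (two-sided exact permutation test over mice, p = 0.8, where 0.1 is the smallest p that 3 against 3 mice allow). In the Sequel runs alone the shares were 64.0%, 65.8% and 65.9% in young mice and 65.7%, 68.4% and 65.4% in aged mice, a difference of 1.22 percentage points (exact permutation test, p = 0.6).

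**Figure D5:**
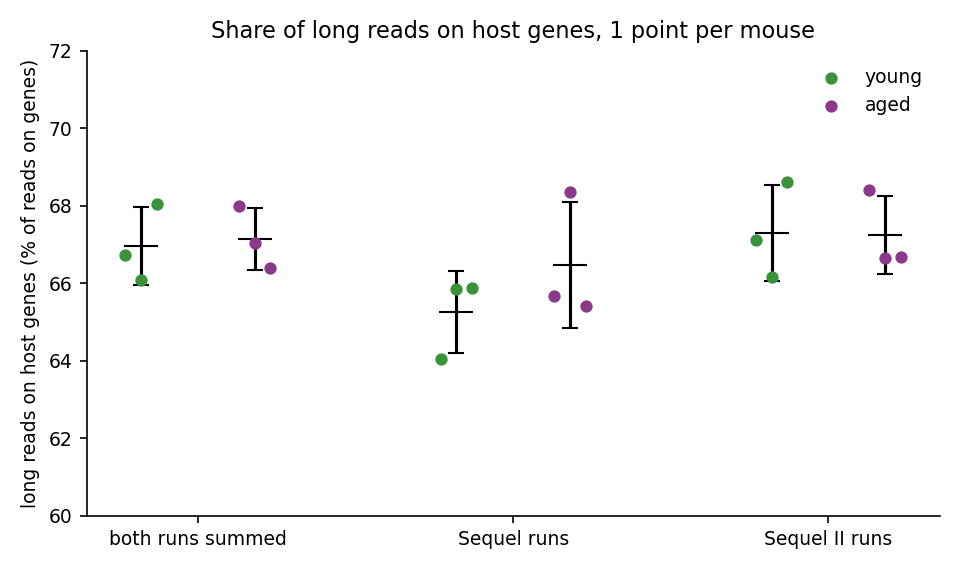
Long reads on host genes as a share of all reads on genes (y axis, %, from 60 to 72) in young and aged mice, for both runs of a mouse summed, the Sequel runs and the Sequel II runs, with points for mice and bars for the mean and SD over 3 mice. In each set the ages overlap, with a summed mean of 67.0% in young and 67.1% in aged mice.

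No host gene passed the test between the ages. Of 9244 genes tested with edgeR's quasi-likelihood test on the summed reads of a mouse, 0 were called at an adjusted p under 0.05 (Benjamini-Hochberg), which is 0% of all genes, and of the 3738 host genes among them 0 were called. At an unadjusted p under 0.05 there were 55 hosts and 154 genes. In the Sequel runs alone 0 of 3007 hosts and 0% of 5250 genes were called, with 80 hosts and 161 genes at an unadjusted p under 0.05. DESeq2 called 0 of 3882 hosts and 0 of 17198 genes, with 30 hosts and 89 genes at an unadjusted p under 0.05. Across simulated counts for these 9244 genes, the test found 92.4% of 4-fold, 37.3% of 2-fold and 4.48% of 1.5-fold changes, and 6.32% of its calls were false. With 3 mice of each age at these depths, most changes of 2-fold or less in single genes drawn from all those tested would therefore be missed. Host genes alone were not simulated, and neither was an exchange of runs between mice.

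Mpo was read at 11632, 9453 and 11693 CPM in young mice 1, 3 and 5 and at 17348, 10915 and 10451 CPM in aged mice 2, 4 and 6. Aged mouse 2 was above the others, and the remaining mice overlapped. The log2 fold change of aged over young was 0.22 (SE 0.20, edgeR adjusted p = 1.00), and in the Sequel runs alone it was 0.29 (SE 0.21, edgeR adjusted p = 0.997). Kit lay at 705, 635 and 779 CPM in young mice and at 705, 809 and 641 CPM in aged mice, so its ages overlapped as well (log2 fold change 0.00, SE 0.15, and 0.11, SE 0.23, in the Sequel runs alone). The host with the smallest p was Add2, a protein of the membrane skeleton of red cells, at 122, 88.7 and 72.4 CPM in young mice and 48.2, 64.3 and 55.1 CPM in aged mice. These did not overlap, which the choice of the smallest p of 3738 hosts makes likely. The difference did not pass the test (log2 fold change -0.77, SE 0.22, edgeR adjusted p = 1.00), and in the Sequel runs alone it was -0.16 (SE 0.38).

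The median log2 fold change of the host genes of each list lay between -0.33 (6 genes of haem synthesis and globins) and 0.19 (10 granule protein genes), beside 0.01 over all 3738 hosts, except for the mature-cell markers. Their 5 host genes had a median of 1.27, and none passed the test. In the Sequel runs alone the medians of the other lists lay between -0.25 (26 ribosomal protein genes) and 0.13 (10 granule protein genes), beside 0.02 over all 3007 hosts. That of the 3 mature-cell markers tested there was 2.74, and again none passed. Jchain, for example, was read at 311, 74.1 and 319 CPM in young mice and at 2872, 197 and 66.6 CPM in aged mice, so only aged mouse 2 was above all young mice. Its log2 fold change was 2.12 (SE 1.05), and 2.74 (SE 0.92) in the Sequel runs alone, and neither passed edgeR's test. The summed level of this list was also highest in that mouse, and its part in the result was not tested.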

How the data were processed

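Long reads of LK cells from 6 mice were analysed with the annotation made from them. The authors aligned the reads with minimap2, corrected them with TranscriptClean, and annotated them with TALON against Gencode M24 on GRCm38. Transcripts with at least 5 reads in at least 3 samples were kept, without those antisense models whose structure was that of an annotated gene, and merged with the reference. The deposited annotation holds positions and names and no measurement. Per the labels, HTSeq was used, and the deposited long-read counts are whole reads per gene and run without normalization. Since the column names give no instrument, it was inferred: Sequel II where a name ends in a run suffix, Sequel where it does not, and 2 columns named by age alone were given to mice 1 and 2 by elimination. The deposited short-read counts are UMIs per gene and cell, made with Cell Ranger 3.0.2, and were summed over all 8436 cells, since no label ties the library numbers of the cells to mice.

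Exons, coding regions and sequences came from the deposited annotation and, where missing, from Gencode M21 on the same build. No genome sequence was used, so a window was read only where M21 exons cover it whole. Python 3.11.15 with numpy 2.4.6, pandas 2.3.3 and scipy 1.17.1, and R 4.3.3 with edgeR 4.0.16 and DESeq2 1.42.0, were used. The runs of a mouse were summed, filterByExpr kept the genes tested, TMM scaled the libraries, and edgeR's quasi-likelihood test of aged against young was first tested on simulated data. CPM were scaled to the reads on genes, with TMM for Add2 only. Percent shares of members have exact binomial intervals at 95%, and members of 1 gene are not independent. The members and the 10 gene lists were chosen with earlier results of these data known. Genes named are the 10 with the most members, up to 4 per list with the most members, the members with the largest losses, and the longest and shortest. Add2 was added after its values were seen. Alternatives were other references, marks, windows, motifs, filters, runs and tests, each mouse left out in turn, and, added after seeing the data, own-number members alone. A few results covered by the naming rule are not reported here.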

Additional observations from a re-analysis of the deposited data

How the results depend on the processing

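The count of host genes called between ages was 0 in the fit given above and in 11 of the 12 alternatives, among them each mouse left out in turn (0 to 0 hosts). Without the filter on low counts 7 of 3887 hosts and 60 of all 17221 genes were called. The difference in the share of reads on host genes, 0.190 percentage points, became -0.0528 in the Sequel II runs alone and -0.162 for hosts with at least 2 members, and ran from -0.244 (without young mouse 3) to 0.741 (without young mouse 5) with a mouse left out, turning to -0.237 without aged mouse 2. The exact permutation p over all of these alternatives lay between 0.2 and 1.

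The share of members truncated at the 3′ end (35.9%) was 38.4% against the longest containing reference, 39.1% in members contained in exactly 1 reference, 43.9% by the prefix mark alone and 72.3% in own-number members. Truncated members kept a median of 58.1% of the reference length, and 53.7%, 53.5% and 51.2% under the longest reference, 1 reference and own-number members. Both ends of the coding region were kept by 10.7% of truncated members, 9.23% with 1 reference and 5.00% of own-number members. A 5′ end near an annotated start was found in 77.2% of members, 67.7% within 10 nt, 83.2% within 200 nt and 84.7% of own-number members. An A-rich window was found in 6.34%, in 14.4% with at least 8 A, 3.37% with at least 12 A, 12.1% with at least 5 A in 10 bases and 2.66% of own-number members. A poly(A) signal was found in 38.0%, in 31.3% for AATAAA alone, 40.4% over 100 bases and 5.48% of own-number members. Spearman's coefficient of members with reads (0.57) was 0.56 in Sequel runs, 0.48 in genes with at least 100 reads, 0.49 with short-read UMIs and 0.34 for own-number members. Spearman's coefficient with transcript length (0.09) was 0.0546, 0.0116, 0.154 and 0.17 under the same settings. The cause of these shifts was not tested. Windows after the 3′ end could be read for 3296 of 8444 members, which limits the share of A-rich ends, and counts per gene limit any statement on the depth of a member in a mouse.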
